A study of Mus musculus with 6 samples.

Results

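The neuregulin and ErbB receptor genes described here are the ligands Nrg1 and Hbegf, the receptors Egfr, Erbb2, Erbb3 and Erbb4, and the receptor inhibitor Errfi1. They were chosen by symbol, 7 genes with 8 transcripts among 19245 gene symbols and 30031 transcripts in the deposited table. RNA of both ventricles was sequenced from C57BL/6 mouse embryos at embryonic day 17.5. In the labelled knockout group (3 libraries) the embryos had floxed alleles of the estrogen-related receptor genes Esrra (alpha) and Esrrg (gamma) and carried the Nkx2.5-Cre driver. Nkx2-5 is active in cardiac progenitors, so Cre recombinase is present in their descendants. The 3 control libraries came from embryos that carried the floxed alleles without Cre. Each library pooled 2 hearts. Since no control embryo had Cre, an effect of Cre itself and an effect of the deletions cannot be told apart.

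Libraries held 12807218 to 32663845 estimated counts over annotated genes, and the deepest was labelled knockout 1. The targeted genes were checked first, in CPM (counts scaled to a common library total), with totals adjusted by the trimmed mean of M-values (TMM). Esrra had 41.0, 44.0 and 43.7 CPM in the labelled knockouts, against 82.0, 68.9 and 76.4 CPM in the controls. Esrrg had 109.8, 116.7 and 120.2 CPM in the labelled knockouts, against 81.9, 79.5 and 83.7 CPM in the controls, which goes against its label. The counts cover whole transcripts, exons outside the floxed part included, so knockout is a label throughout, and all directions are relative to control. The pools also differed in sex. Control 1 and control 3 had almost no Y-linked reads (0.0567 and 0.167 CPM of the raw total over 4 genes), labelled knockout 1 had almost no Xist (0.949 CPM), and the other 3 libraries held both. Markers of the labelled tissue were abundant, and the giant sarcomere gene Ttn alone was at 80307 CPM in the labelled knockouts and 92705 CPM in the controls.

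Neuregulin 1 is an EGF-like growth factor that endocardial and endothelial cells of the embryonic heart release toward the myocardium. It binds ErbB3 and ErbB4. ErbB2 has no known ligand of its own and serves as the preferred partner of the other receptors, and ErbB3 has little kinase activity, so signaling runs through pairs. Mouse embryos that lack Nrg1, Erbb2 or Erbb4 fail to form ventricular trabeculae. HB-EGF, the product of Hbegf, binds EGFR and ErbB4 and acts in valve formation. Errfi1, also called Mig6, binds the kinase domain of active ErbB receptors and blocks it as a feedback inhibitor.

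Of the 7 genes 5 changed, and the changes ran in both directions: the ligands Nrg1 and Hbegf and the receptor Erbb2 rose, and the receptor Erbb3 and the inhibitor Errfi1 fell. Erbb4 and Egfr did not pass the test. The test was edgeR's quasi-likelihood test, p-values being adjusted by the Benjamini-Hochberg method over 14290 genes at a threshold of 0.05, by which 44.4% of all genes tested changed, 22.4% higher and 22.0% lower. By the raw spread, the groups did not overlap for the same 5 genes, and for 53.7% of all genes. The members' counts are to be read against these background shares. Because these are bulk samples, fewer cells of a type and less RNA per cell cannot be told apart.

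**Figure D1:**
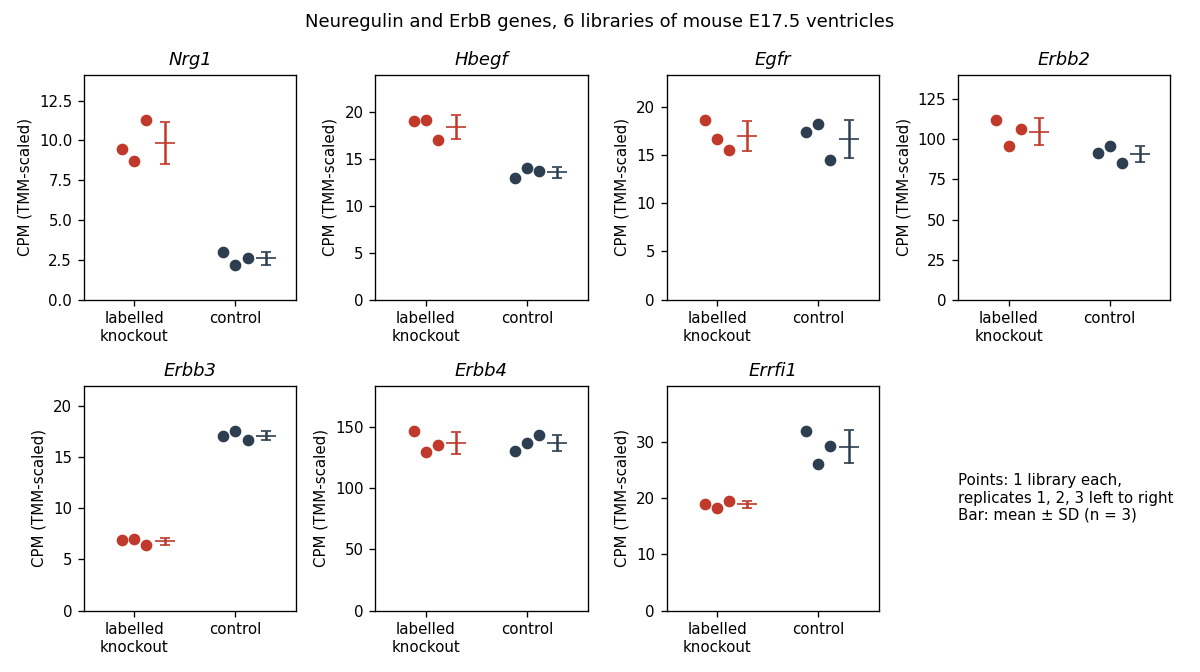
Level of each of the 7 genes in TMM-scaled CPM on linear axes from 0, with labelled knockout libraries on the left and controls on the right, 1 point per library and the mean with its SD (n = 3) beside them. Nrg1 stood at 8.71 to 11.3 CPM in the labelled knockouts and 2.20 to 3.01 CPM in the controls, Erbb3 at 6.38 to 6.96 against 16.7 to 17.6 CPM, and the groups of Erbb4 and Egfr overlapped.

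Nrg1 had the greatest change of the 7. It had 9.48, 8.71 and 11.3 CPM in the labelled knockouts, against 3.01, 2.20 and 2.62 CPM in the controls, so that each labelled knockout library was above each control library. The means were 9.83 ± 1.33 CPM in the labelled knockouts and 2.61 ± 0.407 CPM in the controls (SD, n = 3 each). The log2 fold change was 1.90 (SE 0.152), a 3.72-fold difference, with an adjusted p of 5.16e-07 by edgeR. It ranked 80 from the top among the 14290 genes by log2 fold change, and 2.65% of all genes tested were called higher by at least 2-fold. The level was low in both groups, with 318, 130 and 223 estimated counts in the labelled knockouts against 52, 28 and 46 in the controls.

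The deposited table counts a single Nrg1 transcript, NM_178591, on the minus strand of chromosome 8 at 31818028 to 31918203 (mm10). GENCODE M21 lists 18 Nrg1 transcripts between 31814551 and 32884029, of which 11 start over 1000 bases upstream of this one. Of the 9 exons of the matching GENCODE transcript, 8 overlap exons of those upstream-starting transcripts. Most of the counted exons are thus shared by Nrg1 forms. Reads were not counted per exon, and the rise is not assigned to a start site or isoform.

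Endocardial and endothelial cells are the known source of neuregulin in the heart, so their markers are given beside Nrg1. Of 12 endothelial and endocardial markers 6 rose and 5 fell, beside 22.4% and 22.0% of all genes. The summed level was 1428 to 1546 CPM in the labelled knockouts and 1374 to 1454 CPM in the controls, which overlap. Npr3, an endocardial receptor, was 269.4 ± 19.6 CPM in the labelled knockouts and 149.7 ± 3.36 CPM in the controls, and Emcn, an endothelial sialomucin, was 79.5 ± 5.50 against 52.5 ± 4.20 CPM. In contrast Kdr, a VEGF receptor, was 152.8 ± 5.56 against 215.2 ± 8.55 CPM, and Cdh5, the endothelial cadherin, was 192.8 ± 2.39 against 234.7 ± 9.61 CPM. Their part in the Nrg1 result was not tested.

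Hbegf rose by less. It had 19.1, 19.2 and 17.0 CPM in the labelled knockouts, against 12.98, 14.1 and 13.8 CPM in the controls, without overlap. The log2 fold change was 0.44 (SE 0.0798), a 1.36-fold difference with an adjusted p of 0.000583 by edgeR. The summed Y-linked CPM was entered as a covariate, as log2 after adding 1. The log2 fold change of Hbegf was then 0.37 and the adjusted p 0.0732 by edgeR, so its call did not hold. Without control 1, control 3 and labelled knockout 1 the log2 fold change was 0.36. Hbegf lies on the minus strand of chromosome 18 at 36504927 to 36515805 (mm10).

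Of the 9 other EGF-family ligands only 4 passed the filter on low counts. Tgfa and Egf rose, Btc fell, and Ereg passed the filter through the labelled knockouts alone. Tgfa, a ligand of EGFR, had 12.5, 12.2 and 11.6 CPM in the labelled knockouts, against 7.59, 7.47 and 8.53 CPM in the controls, with an adjusted p of 0.000170 by edgeR. Egf was 8.90 ± 0.980 CPM in the labelled knockouts and 5.89 ± 1.29 CPM in the controls, with an adjusted p of 0.00915. Ereg, which encodes epiregulin, had 54, 20 and 33 counts in the labelled knockouts and 5, 5 and 3 in the controls. A gene that passes the filter in this way has to differ, so its values are given as a description. Btc, which encodes betacellulin, a ligand of EGFR and ErbB4, went the other way, at 3.67 ± 0.605 CPM in the labelled knockouts and 6.20 ± 1.23 CPM in the controls, with an adjusted p of 0.00256. The call of Btc was lost with the Y-linked covariate (adjusted p 0.232) and without the 3 libraries of 1 sex (0.215).

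The other neuregulins were barely detected. Nrg2, Nrg3 and Nrg4 had at most 16 counts in any library and fell under the filter on low counts. Areg, which encodes amphiregulin, had 10, 3 and 9 counts in the labelled knockouts and 1, 1 and 0 in the controls, and Epgn had at most 6. Nrg1 thus had more counts than these 3 neuregulins together in each library.

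EGF-family ligands are made as membrane proteins and released by sheddases. Of 11 genes for such proteases and their cofactors 5 rose and 1 fell, beside 22.4% and 22.0% of all genes. With the Y-linked covariate 4 rose and 0 fell, beside 11.5% of all genes higher (23.8% changed in either direction). The median log2 fold change of the 11 genes was 0.18, beside 0.01 over all genes tested. Adam19, a protease known to process neuregulin, had 279.9, 270.4 and 290.4 CPM in the labelled knockouts, against 170.4, 169.1 and 169.0 CPM in the controls, with an adjusted p of 1.09e-08 by edgeR. Bace2 was 45.6 ± 2.10 CPM in the labelled knockouts and 27.8 ± 0.613 CPM in the controls, and Adam10 was 143.2 ± 5.83 against 105.2 ± 3.50 CPM. Adam17, the main sheddase of HB-EGF and TGF-alpha, did not pass, at 57.4 against 56.2 CPM, and neither did Bace1, known for cleaving neuregulin in nerve, at 55.4 against 61.1 CPM. Rhbdf2, which helps Adam17 mature, was lower, at 11.1 ± 0.635 against 14.1 ± 1.86 CPM with an adjusted p of 0.0116. Rhbdf2 missed the threshold without control 1 (0.0735), control 3 (0.0531) or labelled knockout 1 (0.0577), and in both sex settings (0.793 and 0.816).

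Among the receptors Erbb3 fell and was the most tightly grouped. It had 6.92, 6.96 and 6.38 CPM in the labelled knockouts, against 17.1, 17.6 and 16.7 CPM in the controls. The gap between the groups was far wider than the spread within either. The log2 fold change was -1.34 (SE 0.0857), a 2.53-fold lower level, with an adjusted p of 6.15e-08 by edgeR. It was the change of rank 218 from the bottom among 14290 genes, and 3.21% of all genes tested were called lower by at least 2-fold. Under every setting tried, Erbb3 fell by 1.31 to 1.40 on the log2 scale. The gene lies on the minus strand of chromosome 10 at 128569368 to 128589501 (mm10), and the deposited transcript is 4020 bases long, shorter than the 6016 exonic bases of its GENCODE transcript.

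Erbb3 is known for its role in neural crest and Schwann cells and in the mesenchyme of the heart valves. The summed level of 11 Schwann and neural crest markers was 17.98 to 18.08 CPM in the labelled knockouts and 16.2 to 19.5 CPM in the controls, which overlap. Of the 5 of these markers with enough counts 1, Fabp7, fell, and Sox10 was at 0.766 CPM in the labelled knockouts and 0.635 CPM in the controls. Th had at most 1 count in any library, and S100b had 18, 13 and 14 counts in the labelled knockouts and 6, 5 and 8 in the controls, under the filter. Of 10 fibroblast and mesenchymal markers 10 rose, where 22.4% of all genes were higher and 22.0% lower. Their summed level was 7664 to 8899 CPM in the labelled knockouts and 5497 to 5802 CPM in the controls. Epicardial markers rose in 6 of 10 cases and summed to 216.8 to 232.5 CPM against 156.2 to 171.2 CPM. Cardiomyocyte markers fell in 9 of 10 cases. They summed to 99449 to 111482 CPM in the labelled knockouts and 129557 to 134447 CPM in the controls. The part of any of these cell types in the Erbb3 result was not tested.

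Erbb2, the ligandless partner, was slightly higher. It had 112.2, 95.8 and 106.4 CPM in the labelled knockouts, against 91.5, 95.6 and 85.3 CPM in the controls. The lowest labelled knockout and the highest control were nearly equal. The log2 fold change was 0.21 (SE 0.0606), a 1.16-fold difference with an adjusted p of 0.0118 by edgeR. Erbb2 missed the threshold without labelled knockout 1 (adjusted p 0.0522) or control 3 (0.0658), with the Y-linked covariate (0.478, at a log2 fold change of 0.10) and without the 3 libraries of 1 sex (0.513, at 0.08). Erbb2 lies on the plus strand of chromosome 11 at 98412484 to 98437716 (mm10), where its last exon overlaps the antisense gene Mien1 by 9 bases.

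Erbb4, the myocardial neuregulin receptor, did not differ detectably. It had 146.7, 129.0 and 134.7 CPM in the labelled knockouts, against 129.996, 136.6 and 143.3 CPM in the controls, with overlap. The log2 fold change was 0.01 (SE 0.0529) with an adjusted p of 0.949 by edgeR, and its 95% interval ran from -0.11 to 0.12. With 1738 to 4920 estimated counts per library it was the most deeply counted of the 7 genes. Its single transcript lies on the minus strand of chromosome 1 at 68032187 to 69108059 (mm10).

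Egfr also did not pass, with 18.6, 16.7 and 15.6 CPM in the labelled knockouts, against 17.4, 18.2 and 14.4 CPM in the controls, and a 95% interval of the log2 fold change from -0.17 to 0.26. It had 2 transcripts in the table, both starting at 16752203 on the plus strand of chromosome 11. Most estimated counts were of the full-length NM_207655, with 569.1, 233.5 and 279.6 in the labelled knockouts and 290.1, 225.6 and 240.0 in the controls. The short NM_007912 had 55.9, 15.5 and 27.4 estimated counts in the labelled knockouts, against 9.92, 5.42 and 14.01 in the controls. Its log2 fold change of 1.17 (SE 0.387) did not pass when all 21591 transcripts were tested, where 22.7% changed (adjusted p 0.0706 by edgeR). Reads that both transcripts share are divided by estimation, which the test does not take into account.

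To compare levels between genes, the RPKM values (reads per kilobase of transcript, scaled to the mapped reads of the library) were used, as deposited. Order within a library does not depend on the library total. It does depend on the deposited transcript lengths, 12036 bases for Erbb4 and 4998 for Erbb2. In estimated counts Erbb4 was above Erbb2 in each library. In each of the 6 libraries Erbb2 stood first and Erbb4 second by RPKM, at 7.32 to 9.37 and 4.09 to 5.09 RPKM in the labelled knockouts and 6.19 to 6.96 and 3.76 to 4.32 RPKM in the controls. In each labelled knockout the order then ran Hbegf, Errfi1, Nrg1, Egfr and Erbb3. In each control it ran Errfi1, Hbegf, Erbb3, Egfr and Nrg1. Nrg1 was at 1.58 to 2.12 RPKM in the labelled knockouts, above Egfr at 1.14 to 1.45 RPKM, while in the controls it was last at 0.381 to 0.498 RPKM. Erbb3 was last in the labelled knockouts at 0.627 to 0.718 RPKM and in the controls it stood between Hbegf and Egfr at 1.48 to 1.59 RPKM. In each group no range of a gene overlapped that of its neighbour in this order.

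Among the receptor transcripts the share of Erbb3 was lower in the labelled knockouts and that of Erbb2 higher. The shares are parts of a whole, so a fall of Erbb3 by itself raises the others. The Erbb2 share is thus not a result separate from that of Erbb3. Erbb3 made up 4.32%, 5.00% and 4.30% of the summed RPKM of the 4 receptors in the labelled knockouts, against 11.7%, 11.5% and 11.6% in the controls. Erbb2 made up 56.4%, 55.4% and 57.6% in the labelled knockouts, against 50.3%, 50.4% and 47.8% in the controls. Neither share overlapped between the groups, and each had an exact two-sided permutation p of 0.1, the smallest that 3 against 3 libraries can give. Erbb4 made up 30.6 ± 0.335% in the labelled knockouts and 30.96 ± 2.07% in the controls, and Egfr 8.41 ± 0.503% and 7.94 ± 0.606%, both with overlap. The ratio of Nrg1 to Erbb4 in RPKM was 0.370, 0.386 and 0.480 in the labelled knockouts, against 0.133, 0.0922 and 0.104 in the controls (exact p 0.1).

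**Figure D2:**
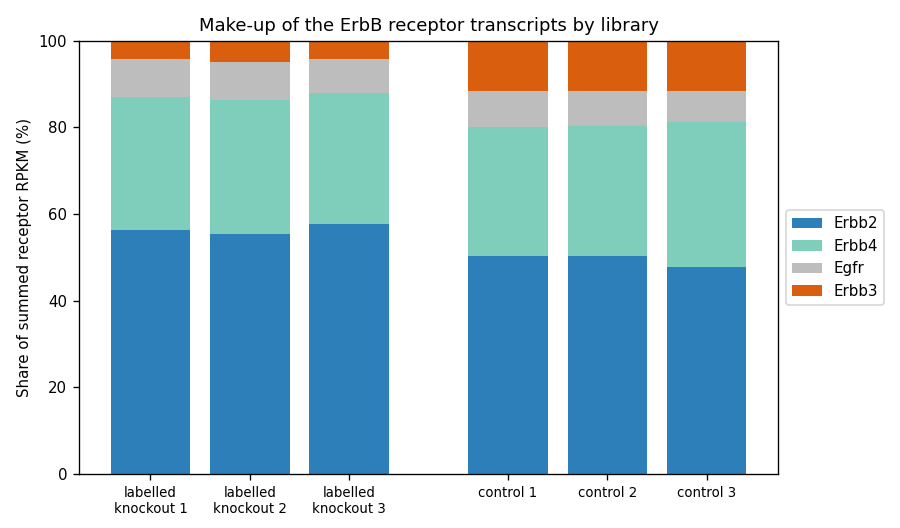
Share of each ErbB receptor in the summed RPKM of the 4 receptors, 1 stacked bar per library, labelled knockouts on the left and controls on the right. The Erbb3 segment at the top is 4.30% to 5.00% in the labelled knockouts and 11.5% to 11.7% in the controls, and the Erbb2 segment at the bottom is 55.4% to 57.6% against 47.8% to 50.4%.

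Errfi1, the feedback inhibitor, fell. It had 19.0, 18.1 and 19.5 CPM in the labelled knockouts, against 32.0, 26.1 and 29.2 CPM in the controls, without overlap. The log2 fold change was -0.63 (SE 0.0775), a 1.55-fold lower level with an adjusted p of 2.67e-05 by edgeR. It fell by 0.44 on the log2 scale with the Y-linked covariate (adjusted p 0.0129) and by 0.47 without the 3 libraries of 1 sex (0.0110), and stayed under the threshold in both. The counted transcript lies on the plus strand of chromosome 4 at 150855091 to 150868880 (mm10).

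Promoter windows in RefSeq on GRCm38.p6, of 250 bases before to 50 after a start, were used for Erbb4, Egfr and Erbb2, with 1 window each, and for Errfi1, with 2. No window of Nrg1, Hbegf or Erbb3 was searched, although these genes changed, so the matches given below say nothing about them. The windows of Errfi1 and Erbb2 are shown because these genes changed, and because the targeted receptors are DNA-binding factors whose known response element is TCAAGGTCA. Capitals mark AGGTCA, the core of that element, and also TGACGTCA, the cyclic AMP response element, and TATAAA, the TATA box, which were searched after the sequences had been read. Each sequence is given on the plus strand of the genome, which is the strand of both genes.
Errfi1, upstream start, chr4:150853546-150853845: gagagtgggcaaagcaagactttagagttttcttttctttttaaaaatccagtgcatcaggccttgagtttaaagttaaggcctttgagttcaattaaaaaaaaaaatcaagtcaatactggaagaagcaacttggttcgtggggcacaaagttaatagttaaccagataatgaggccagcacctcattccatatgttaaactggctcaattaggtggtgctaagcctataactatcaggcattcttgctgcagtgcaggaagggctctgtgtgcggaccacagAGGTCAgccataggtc
Errfi1, downstream start, chr4:150854820-150855119: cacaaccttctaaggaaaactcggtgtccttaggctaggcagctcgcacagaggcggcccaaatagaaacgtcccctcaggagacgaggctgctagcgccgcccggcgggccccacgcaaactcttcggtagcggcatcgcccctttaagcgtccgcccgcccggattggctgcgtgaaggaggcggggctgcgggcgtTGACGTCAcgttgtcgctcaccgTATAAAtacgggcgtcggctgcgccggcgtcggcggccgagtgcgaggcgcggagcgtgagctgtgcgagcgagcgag
Erbb2, chr11:98412234-98412533: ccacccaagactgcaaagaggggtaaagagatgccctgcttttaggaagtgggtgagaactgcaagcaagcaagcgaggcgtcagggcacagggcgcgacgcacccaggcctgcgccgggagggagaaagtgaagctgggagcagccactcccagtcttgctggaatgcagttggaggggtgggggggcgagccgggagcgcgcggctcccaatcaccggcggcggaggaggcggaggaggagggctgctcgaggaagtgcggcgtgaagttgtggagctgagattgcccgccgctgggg

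Searched on both strands, the full element TCAAGGTCA was in none of the 5 windows and in 0.423% of all 32851 promoter windows, and its shorter form AAGGTCA was in none and in 4.72%. Of the 5 windows, the upstream Errfi1 window alone held the core AGGTCA, which the longer forms contain and which is in 16.3% of all windows. The downstream Errfi1 window, the one at the start of the counted transcript, held TGACGTCA, which is in 1.79% of all windows, and TATAAA, which is in 13.6%. It had a GC content of 66.7%, against 42.0% in the upstream window. The matches are letters in these windows and do not show binding.

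Among other regulators of the receptors 5 of 18 tested were higher, beside 22.4% of all genes, and 0 were lower (1 was lower without labelled knockout 1 or without labelled knockout 2). Their median log2 fold change was 0.09. With the Y-linked covariate 3 were higher, beside 11.5% of all genes (23.8% changed in either direction). Muc1, which is among the 5, had only 12 to 50 counts in the labelled knockouts and 7 to 10 in the controls. In CPM its groups overlapped, at 0.760 to 1.49 against 0.406 to 0.786, and 1 control reached the cut of the filter. Its call was lost with DESeq2 (adjusted p 0.171), limma-voom (0.0592), and in edgeR with a replicate block (0.0615) or the Y-linked covariate (0.887). It was also lost without labelled knockout 1, control 1 or control 3. Without the 3 libraries of 1 sex the log2 fold change of Muc1 was -0.01. Ptprj, a receptor phosphatase that acts on EGFR, was 40.3 ± 1.32 CPM in the labelled knockouts and 23.5 ± 1.18 CPM in the controls, with an adjusted p of 4.29e-07 by edgeR. Nedd4, a ubiquitin ligase, was 2701 ± 37.4 CPM in the labelled knockouts and 2242 ± 7.13 CPM in the controls, and Hsp90ab1, a chaperone on which ErbB2 depends, was 1484 ± 33.8 against 1269 ± 48.4 CPM. Lrig1, which promotes breakdown of ErbB receptors, did not pass, at 56.5 against 56.9 CPM (adjusted p 0.898 by edgeR). Rnf41, the ubiquitin ligase of ErbB3, narrowly missed the threshold, at 42.4 against 38.4 CPM (0.05001). Erbin, which binds ErbB2, also missed it, at 274.3 against 257.8 CPM (0.0609). The groups of Rnf41 and of Erbin did not overlap, as for 53.7% of all genes.

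The adaptors and kinases that relay the signal changed little and in both directions. The median log2 fold change of the 28 tested was -0.01. Of these, 6 were higher and 8 lower (5 lower without labelled knockout 1), beside 22.4% and 22.0% of all genes. The deepest fall was that of Pik3r3, a regulatory subunit of PI3-kinase, at 29.6 ± 2.31 CPM in the labelled knockouts and 40.2 ± 1.90 CPM in the controls. The kinase Map2k2 was 55.3 ± 0.549 CPM in the labelled knockouts and 66.0 ± 2.27 CPM in the controls. Cbl, a ubiquitin ligase that turns over EGFR, was 90.9 ± 1.02 against 75.5 ± 2.39 CPM. No gene of this list changed by as much as 1.5-fold. The call of Map2k2 was lost with the Y-linked covariate (adjusted p 0.0926 by edgeR). Without the 3 libraries of 1 sex the calls of Map2k2 and Cbl were lost, at log2 fold changes of -0.19 and 0.22. With the Y-linked covariate 3 of the 28 rose and 2 fell, beside 23.8% of all genes changed in either direction.

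Genes that ERK signaling is known to induce, its own feedback inhibitors among them, were mostly higher. Of the 20 tested 13 rose, against 22.4% of all genes, and 0 fell, against 22.0%. The median log2 fold change of the 20 was 0.44. Without labelled knockout 3, 10 rose and 1 fell, and without control 1, 12 rose and 1 fell. Without labelled knockout 1 or control 2, 11 rose, and without labelled knockout 2, 14 rose. Egr1 and Etv4, among the 13, overlapped between the groups and lost their calls in several settings. Etv5, an ETS transcription factor, had 81.9, 70.2 and 93.3 CPM in the labelled knockouts, against 30.0, 27.2 and 25.0 CPM in the controls, a 2.99-fold difference with an adjusted p of 3.85e-08 by edgeR. Etv1, of the same family, was 86.8 ± 1.59 CPM in the labelled knockouts and 49.4 ± 1.19 CPM in the controls, and Spred1, which restrains RAS, was 169.6 ± 8.24 against 104.5 ± 2.11 CPM. The ERK phosphatase gene Dusp6 was 61.7 ± 3.29 against 47.3 ± 3.91 CPM. Jun, Junb and Myc did not pass, at 42.0 against 47.6, 6.15 against 7.07 and 9.78 against 11.3 CPM. With the Y-linked covariate 11 of the 20 listed genes were higher, beside 11.5% of all genes (23.8% changed in either direction). Without the 3 libraries of 1 sex 12 of the 20 were higher, beside 12.4% of all genes (25.3% in either direction). Many growth factors act through ERK, so the list is not specific to ErbB receptors. Errfi1, itself known to be induced by such signals, fell.

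In the trabeculation list 9 of 22 genes rose and 5 fell, beside 22.4% and 22.0% of all genes. The median log2 fold change of the list was 0.10. Vcan, a proteoglycan of the cardiac jelly, had 2419.7, 2152 and 2335 CPM in the labelled knockouts, against 872.2, 897.8 and 834.1 CPM in the controls, with an adjusted p of 5.63e-10 by edgeR. Bmp10, a growth factor of the trabeculae, was 2.90-fold higher, and Gpr126 (Adgrg6 in the table), an adhesion receptor of the endocardium, was 92.1 ± 17.0 CPM in the labelled knockouts and 44.2 ± 2.48 CPM in the controls. Vegfa, the endothelial growth factor, was 191.1 ± 14.7 against 280.5 ± 34.5 CPM. Hey2, of the compact layer, was 1.23-fold lower. Nkx2-5 was 1.29-fold lower and lost its call with the Y-linked covariate (log2 fold change -0.28, adjusted p 0.0620 by edgeR). Notch1, which acts upstream of Nrg1 in the endocardium, did not pass, at 145.8 ± 12.5 CPM in the labelled knockouts and 148.1 ± 2.78 CPM in the controls. With the Y-linked covariate 4 of the list rose and 3 fell, beside 11.5% of all genes higher (23.8% changed in either direction).

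**Figure D3:**
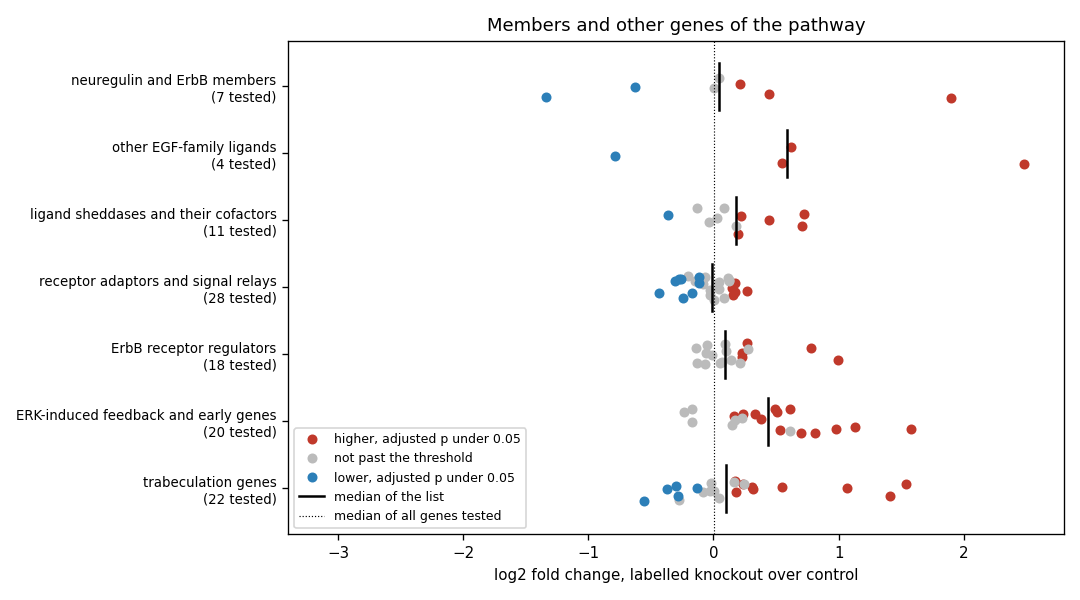
Log2 fold change of labelled knockout over control for each tested gene of the 7 members and of 6 other lists, 1 point per gene, with the median of each list as a bar and that of all genes tested as a dotted line. Nrg1 lies at 1.90 and Erbb3 at -1.34 in the top row, 13 of 20 ERK-induced genes are coloured as higher, and the relays in the fourth row lie close to 0. The rightmost point of the second row, at 2.48, is Ereg, which passed the filter on low counts through the labelled knockouts alone.

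The genes whose profile over the 6 libraries was nearest to a member's were found by the root mean square difference of centred log2 CPM. For Nrg1 these were Kcnmb1, at 0.104, and Tmem100, at 0.115, and no gene lay within 0.1. Tmem100 had 23.2, 21.2 and 26.4 CPM in the labelled knockouts, against 7.88, 6.76 and 6.995 CPM in the controls. For Erbb3 they were Ecsit, at 0.0229, and Atp5j2, at 0.0491, with 71 genes within 0.1. Ecsit had 21.2, 21.5 and 20.4 CPM in the labelled knockouts, against 52.3, 53.8 and 52.5 CPM in the controls. For Errfi1 they were Vars2 and 1700037H04Rik, for Hbegf Nradd and Heph, and for Erbb2 Arhgef40 and Abhd2, all at 0.0194 to 0.0335. With 447 genes near Hbegf and 1367 near Erbb2, such small changes are shared by many genes.

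The authors' deposited table gives its own false discovery rates for the same comparison. It lists Nrg1 at 2.23e-08, Erbb3 at 2.29e-08 and Errfi1 at 0.000447. In the authors' deposited table Erbb2 is at 0.0568 and Hbegf at 0.111, above 0.05, and Erbb4 and the 2 Egfr transcripts are at 0.472 or above. The 3 genes under 0.05 there are those whose calls held in every setting tried here.

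**Figure D4:**
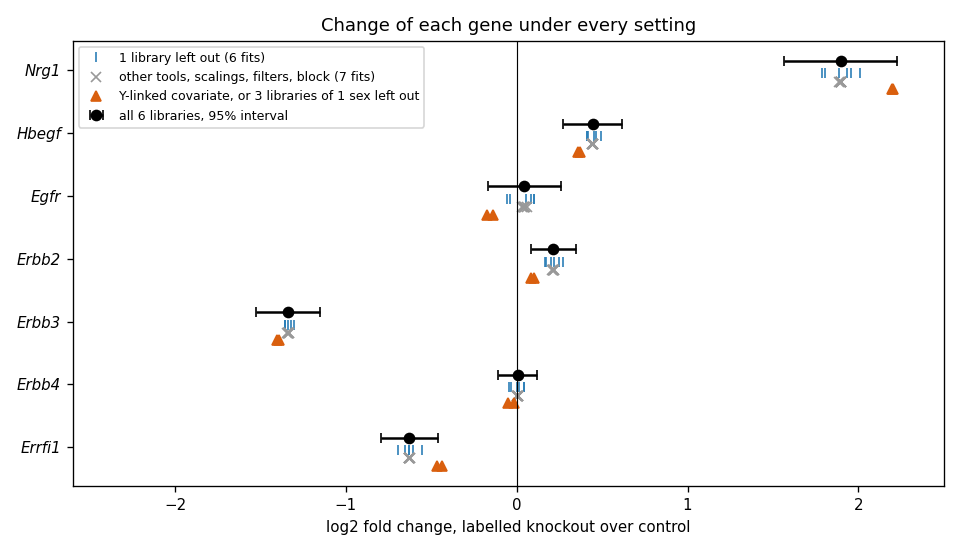
Log2 fold change of labelled knockout over control for each of the 7 genes, with the 95% interval of the fit on all 6 libraries in black, fits that leave out 1 library in blue, other tools and settings in gray and the 2 sex settings in orange. Nrg1 stays at 1.79 or above and Erbb3 at -1.31 or below, while the orange points of Erbb2 lie at 0.08 and 0.10. Egfr and Erbb4, which did not pass, lie on either side of 0 depending on the setting.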

How the data were processed

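Per the labels' protocols, RNA was depleted of ribosomal RNA, made into libraries with a stranded total RNA kit (an mRNA kit is named too) and read as 50 bp single ends. The submitters' processing notes name mm10 with DESeq, Partek 6.6 and TopHat2 2.0. What each was used for is not given, nor whether strand was used in counting. The authors deposited estimated counts per transcript, which need not be whole, and RPKM values. RPKM recomputed with the deposited reliably mapped reads was within 0.1% for 100% of values above 0.01. That total includes introns and intergenic reads, and exons took 37.6 to 40.6 percent of the reads of a labelled knockout against 35.5 to 37.1 percent of a control, per the file headers, so groups were compared on TMM-scaled CPM and RPKM served only within a library. The authors' deposited p-value columns are printed only where named. Deposited stops were set 1 base lower, to the annotated end.

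Counts were summed per symbol, with 58 transcripts renamed by their accessions where a spreadsheet had changed the symbol, and rounded. Of the sums, 94.5% differed from a whole number by at most 0.01. Genes were tested with edgeR 4.0.16 in R 4.3.3 (quasi-likelihood, two-sided, TMM, filterByExpr with a minimum count of 10 and a total of 15). Common biological variation was 5.58%, and the script was tested on simulated data. A count of 0 has a floor of 3 counts, 0.0918 to 0.234 CPM per library, for counting error only. Replicates differed by more than sampling noise (chi-square per degree of freedom 2.81 to 9.92). Single values used exact permutation in SciPy 1.17.1. Groups came from the labels, which do not say whether pools share a litter. Members, lists and tests were chosen with earlier results of these data known. Named genes are the 7 members, up to 3 changed genes per list and direction by adjusted p, 2 nearest profiles per changed member with a mean of at least 50 counts, and some unchanged genes and markers picked for their known role after their values were seen. One listed gene, Fosl1, was not analysed here. Values of some genes that the rule or the lists name are not reported here. Alternatives were DESeq2 1.42.0, limma-voom (limma 3.58.1), other scalings, no filter, robust dispersion, a replicate block, leaving out each library, and 2 sex settings chosen after seeing the data.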

Additional observations from a re-analysis of the deposited data

How the results depend on the processing

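Nrg1, Erbb3 and Errfi1 kept their direction and call under each of the 15 alternatives. Nrg1 ranged from 1.79 to 2.01 on the log2 scale with 1 library left out and was 2.20 and 2.19 in the sex settings, and Errfi1 from -0.70 to -0.56 with 1 library left out. Hbegf kept its call except in the sex settings, and Erbb2 except there and without labelled knockout 1 or control 3. Members higher therefore numbered 1 in place of 3 with the Y-linked covariate and 1 without the 3 libraries of 1 sex, and genes changed numbered 3404 and 3645 in place of 6348. The second setting leaves 1 control, which is assumed to vary like the labelled knockouts. Erbb2 did not pass among transcripts (adjusted p 0.0762 by edgeR) but did without labelled knockout 2 (0.0317). Replicate numbers did not pair the samples (deviations of same-numbered libraries correlated at -0.006, -0.015 and 0.104), and with a replicate block 6410 genes changed and each of the 7 genes kept its side of the threshold, Nrg1 at 1.90 and Erbb3 at -1.34. No scaling moved the median of all genes by 0.1 on the log2 scale. Low counts limit Nrg1 in the controls and the short Egfr transcript.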
